A study of Mus musculus with 29 samples.

Results

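Tbr2-positive nuclei were compared with Tbr2-negative nuclei of the mouse cortex at E16.5 of embryonic development, both treated with TSA (trichostatin A), a histone deacetylase inhibitor. The comparison rests on 4 RNA-seq libraries of the 29 samples in the series, chosen by their titles: 2 Tbr2-positive TSA libraries and 2 Tbr2-negative TSA libraries. It is set beside the same comparison under vehicle, which has 3 Tbr2-positive and 3 Tbr2-negative libraries and shares no library with it, and beside 15 H3K9ac ChIP-seq libraries: 4 Tbr2-positive TSA, 4 Tbr2-negative TSA, 3 Tbr2-positive vehicle and 4 Tbr2-negative vehicle. The question is which of the population differences stand under the inhibitor. The series text describes sorted nuclei, while the protocol in the labels names whole tissue for the RNA. The labels give no mouse strain, no TSA dose and no length of treatment, and they do not say whether replicates came from separate animals. The p-values therefore measure the spread between these samples, which may be technical.

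Tbr2 is a T-box transcription factor encoded by Eomes. In the embryonic cortex it marks basal (intermediate) progenitors, which arise from radial glia, divide in the subventricular zone and give rise to glutamatergic neurons. The proneural factors Neurog1 and Neurog2 act upstream of Tbr2, and NeuroD factors follow it. Sorting away from Tbr2 leaves a mixture that can hold radial glia, postmitotic glutamatergic neurons, interneurons that migrated in from the ventral forebrain, glia and vascular cells. TSA blocks zinc-dependent histone deacetylases, so that lysines such as H3K9 keep their acetyl groups, and H3K9ac is a mark of active gene starts. In bulk libraries of sorted nuclei, fewer cells of a type and less RNA per cell cannot be told apart.

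The libraries held 18567111 to 26282652 counts, and 22171133 to 26282652 in the 4 TSA libraries. On the first principal component, 34.3% of the variance, the 5 Tbr2-positive libraries had values of the opposite sign to the 5 Tbr2-negative ones, whichever the treatment. Mitochondrially encoded transcripts took 0.306% and 0.328% of counts in Tbr2-positive TSA libraries, against 0.445% and 0.323% in Tbr2-negative TSA libraries. Vascular and meningeal markers and erythroid markers did not pass the test in either direction under TSA (0 of 16 and 0 of 7).

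Eomes (ENSMUSG00000032446), whose protein was the sorting marker, checks the labels. In CPM (counts scaled by library size to a common total), it had 391 and 462 in Tbr2-positive TSA nuclei, against 14.2 and 8.24 in Tbr2-negative TSA nuclei. The log2 fold change was 5.25 ± 0.32 (SE; adjusted p = 1.19e-05, edgeR's quasi-likelihood test with Benjamini-Hochberg adjustment over all genes, as for every adjusted p below unless another tool is named). Under vehicle the log2 fold change was 4.62, and the difference between the TSA and vehicle values did not pass (adjusted p = 0.897). Both Tbr2-positive TSA libraries lay far above both Tbr2-negative TSA libraries.

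Of 20078 genes tested, 841 were higher (4.19%) and 1030 were lower (5.13%) in Tbr2-positive TSA nuclei at an adjusted p below 0.05, or 9.32% in either direction. Of these, 625 and 788 differed at least 2-fold. The values of the 2 groups did not overlap for 50.9% of all genes tested. Tbr2-negative TSA library 1 had the most influence: without it 278 genes were higher and 396 lower. Without Tbr2-positive TSA library 1 the counts were 528 and 535, without Tbr2-positive TSA library 2 they were 585 and 643, and without Tbr2-negative TSA library 2 they were 493 and 504.

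Basal progenitor genes were mostly higher. Of 19 listed basal progenitor genes, 16 were higher, 1 was lower and 2 did not pass, with a median log2 fold change of 2.72 beside -0.02 over all genes. Neurod4, a basic helix-loop-helix factor that follows the neurogenins, had 154 and 77.9 CPM in Tbr2-positive TSA nuclei, against 2.13 and 1.21 CPM in Tbr2-negative TSA nuclei (log2 fold change 6.11 ± 0.55; adjusted p = 8.94e-05). Neurog1, a proneural factor, had 6.96 and 4.47 CPM in Tbr2-positive TSA nuclei, against 0.0418 and 0.126 CPM in Tbr2-negative TSA nuclei (6.01 ± 0.76; adjusted p = 0.000652). Neurog2, the other cortical neurogenin, had 384 and 266 CPM in Tbr2-positive TSA nuclei, against 21.5 and 16.7 CPM in Tbr2-negative TSA nuclei (4.09 ± 0.30; adjusted p = 2.73e-05). For each of these factors both positive libraries lay at least an order of magnitude above both negative ones. Sstr2, a somatostatin receptor gene, had 537 and 415 CPM in Tbr2-positive TSA nuclei, against 42.3 and 45.2 CPM in Tbr2-negative TSA nuclei (3.44 ± 0.29).

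Other members stood at similar distances: Mfap4, a microfibril-associated gene (log2 fold change 4.92 ± 0.47), Tac2, which encodes neurokinin B (4.73 ± 0.49), Nhlh1, a neuronal helix-loop-helix factor (4.25 ± 0.46), and Gadd45g, a stress-sensor gene linked to cell cycle exit (2.72 ± 0.31). Btg2, an antiproliferative gene of neurogenic divisions, was higher by 2.12 ± 0.28 and Neurod1 by 2.46 ± 0.25. The 2 listed genes that did not pass were Cited2 (0.76 ± 0.24, adjusted p = 0.0727) and the Notch ligand gene Dll3 (1.001 ± 0.36, adjusted p = 0.109). Kif26a, a kinesin family gene, was the one lower member (-1.61 ± 0.32, adjusted p = 0.00773), a call that ended without Tbr2-positive TSA library 2 or Tbr2-negative TSA library 2. Under vehicle 18 of the 19 were higher and 1 was lower, also with a median of 2.72. Leaving out any 1 TSA library kept 13 to 15 of the 19 genes higher.

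The starts of 4 genes are shown: Eomes and Neurod4 from the higher genes, Gad1 and Gabra5 from the lower genes. Neurod4, Gad1 and Gabra5 were picked because, under TSA, they had an H3K9ac peak there in 1 population alone. A link between H3K9ac and RNA was not tested for single genes. Each line holds the 250 bases before the gene start, read along the gene's own strand from RefSeq (GRCm38.p6). Capitals mark 2 motifs searched on both strands of windows from 250 bases before to 50 bases after each start: the E-box CAGATG (other strand CATCTG), a form bound by neurogenin and NeuroD proteins, and the T-box half-site AGGTGT (other strand ACACCT).
Eomes (chr9:118477939-118478188, plus strand): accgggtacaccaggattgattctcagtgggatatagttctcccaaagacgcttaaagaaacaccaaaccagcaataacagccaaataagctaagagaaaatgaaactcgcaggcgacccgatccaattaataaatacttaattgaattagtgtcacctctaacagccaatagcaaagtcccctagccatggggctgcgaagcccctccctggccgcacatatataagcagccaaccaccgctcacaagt
Neurod4 (chr10:130280255-130280504, minus strand): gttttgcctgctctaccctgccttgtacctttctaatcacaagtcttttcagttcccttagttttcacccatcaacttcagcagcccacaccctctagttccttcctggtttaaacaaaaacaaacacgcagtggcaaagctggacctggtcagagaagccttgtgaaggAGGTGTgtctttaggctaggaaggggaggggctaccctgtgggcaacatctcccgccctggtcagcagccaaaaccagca
Gad1 (chr2:70561879-70562128, plus strand): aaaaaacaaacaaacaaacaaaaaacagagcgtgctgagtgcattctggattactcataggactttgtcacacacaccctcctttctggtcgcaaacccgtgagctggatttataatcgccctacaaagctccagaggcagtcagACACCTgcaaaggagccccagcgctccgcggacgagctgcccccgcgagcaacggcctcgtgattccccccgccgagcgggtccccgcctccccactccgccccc
Gabra5 (chr7:57510060-57510309, minus strand): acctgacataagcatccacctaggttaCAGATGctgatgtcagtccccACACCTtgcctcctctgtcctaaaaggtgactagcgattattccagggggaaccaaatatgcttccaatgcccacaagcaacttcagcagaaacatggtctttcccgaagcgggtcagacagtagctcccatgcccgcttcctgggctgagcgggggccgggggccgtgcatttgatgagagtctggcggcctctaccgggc
Counted back from the start, the Neurod4 window held 1 T-box half-site with its first base at -80 and no E-box. Gad1 held 1 T-box half-site at -105, Gabra5 had an E-box with its first base at -223 and a T-box half-site at -202, and Eomes held neither. Over all 32851 promoter windows, 17.15% held the E-box and 13.74% the T-box half-site. Among windows of the higher genes the shares were 15.44% and 11.46%, among those of the lower genes 13.65% and 14.12%, and among those of all tested genes 12.45% and 11.26%. A match of this length is a description of the letters only.

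At the Neurod4 start, an H3K9ac peak lay within 1 kb in 4 of 4 Tbr2-positive TSA libraries and in 0 of 4 Tbr2-negative TSA libraries. The same gene had a peak in 3 of 3 Tbr2-positive vehicle libraries and in 0 of 4 Tbr2-negative vehicle libraries. The authors' -log10 q of the strongest such peak was 3.66, 13.2, 3.65 and 5.61 in the 4 Tbr2-positive TSA libraries. Eomes, Neurog1 and Neurog2 had a peak at the start in every H3K9ac library of both populations. The strongest Eomes peak there had a -log10 q of 37.6 to 48.7 in Tbr2-positive TSA libraries and 3.20 to 10.8 in Tbr2-negative TSA libraries, values of separate peak calls that are not on a shared scale.

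**Figure D1:**
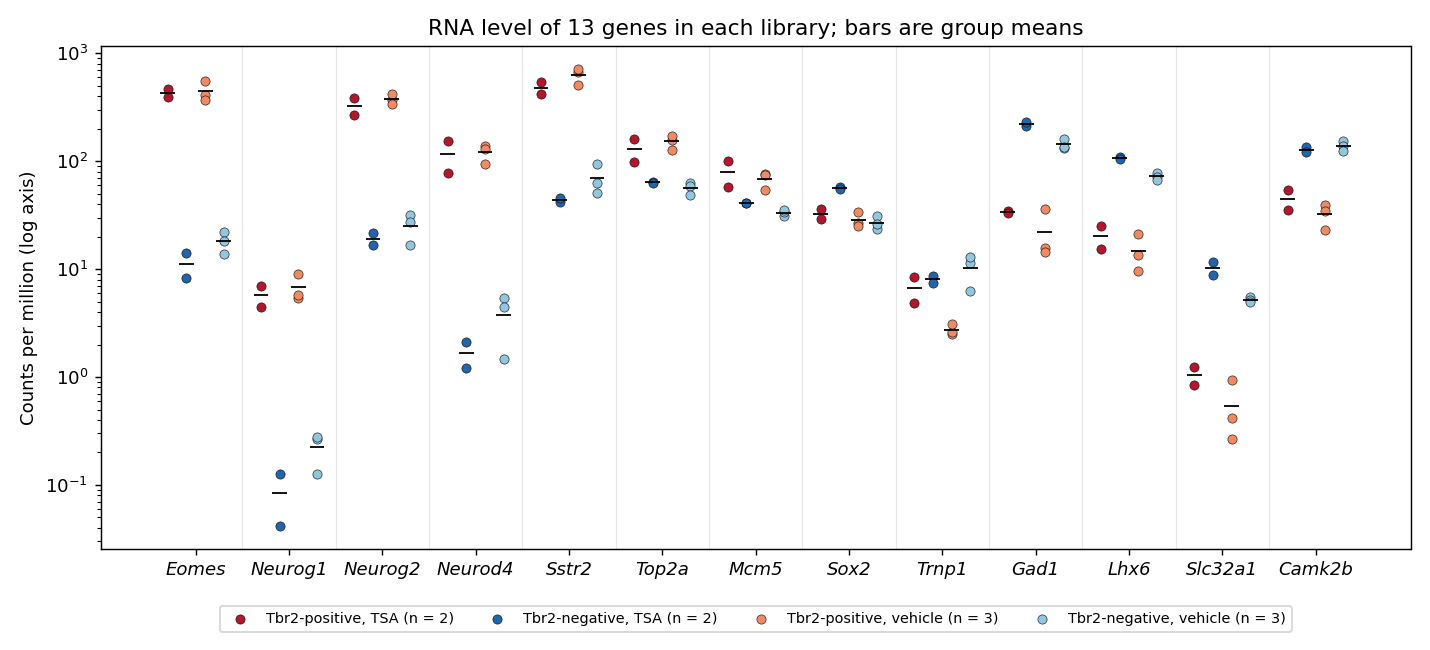
RNA level of 13 genes in each of the 10 libraries, in CPM on a log axis. Points are libraries, bars are group means, and colours are the 4 groups; Eomes, Neurog1, Neurog2, Neurod4 and Sstr2 are high in both Tbr2-positive groups, Gad1, Lhx6, Slc32a1 and Camk2b are low in them, and Trnp1 overlaps between the TSA groups.

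Most listed genes of DNA replication and mitosis passed as higher in Tbr2-positive TSA nuclei, counts that leaned on single libraries. S-phase genes were called higher in 14 of 20 cases and lower in 0, and their median was 1.10 on the log2 scale (-0.02 over all genes). Rrm2, a ribonucleotide reductase subunit, had 189 and 109 CPM in Tbr2-positive TSA nuclei, against 34.2 and 48.6 CPM in Tbr2-negative TSA nuclei (1.85 ± 0.32; adjusted p = 0.00362). Mcm2, a subunit of the replicative helicase, had 95.5 and 104 CPM in Tbr2-positive TSA nuclei, against 22.3 and 43.2 CPM in Tbr2-negative TSA nuclei (1.61 ± 0.28). Another helicase subunit gene, Mcm5, had 100.3 and 57.4 CPM in Tbr2-positive TSA nuclei, against 41.1 and 40.7 CPM in Tbr2-negative TSA nuclei (0.95 ± 0.25; adjusted p = 0.0334). The positive libraries lay above the negative ones for all 3 genes. The 2 groups lay apart for every gene called under TSA, so this adds no support to the calls. The Rrm2 call ended without Tbr2-negative TSA library 1 (adjusted p = 0.0517), and the Mcm5 call without Tbr2-positive TSA library 1 or either Tbr2-negative TSA library. Pcna, the replication clamp, did not pass (0.42 ± 0.22, adjusted p = 0.29).

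Of 20 G2/M genes 16 were higher and none was lower, with a median of 1.48. Nusap1, a spindle protein gene, had 80.0 and 36.2 CPM in Tbr2-positive TSA nuclei, against 9.77 and 18.2 CPM in Tbr2-negative TSA nuclei (2.05 ± 0.35; adjusted p = 0.00362). Ccnb2, a mitotic cyclin, had 58.0 and 41.2 CPM in Tbr2-positive TSA nuclei, against 10.4 and 15.4 CPM in Tbr2-negative TSA nuclei (1.94 ± 0.32). Ube2c, which acts with the anaphase-promoting complex, was higher by 1.78 ± 0.30 and Top2a, a topoisomerase of dividing cells, by 1.02 ± 0.23. Mki67, the proliferation marker, had 97.8 and 103 CPM in Tbr2-positive TSA nuclei, against 41.0 and 38.3 CPM in Tbr2-negative TSA nuclei (1.34 ± 0.37; adjusted p = 0.0409). Its call was kept in 4 of the 10 fits that each left out 1 library. Top2a lost its call without Tbr2-positive TSA library 1 or either Tbr2-negative TSA library. Many S-phase and G2/M genes lost their call without Tbr2-positive TSA library 1 or without either Tbr2-negative TSA library. Under vehicle 18 S-phase and 19 G2/M genes were higher, with medians of 1.24 and 1.58.

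Notch pathway genes were higher where they passed. Of 18, 6 were higher and none was lower under TSA (median 0.30), and 2 were higher without Tbr2-negative TSA library 1. Mfng, a glycosyltransferase that modifies Notch receptors, had 244 and 183 CPM in Tbr2-positive TSA nuclei, against 29.7 and 24.3 CPM in Tbr2-negative TSA nuclei (2.98 ± 0.38; adjusted p = 0.000714). The ligand gene Dll4 was higher by 2.64 ± 0.52, the receptor gene Notch1 by 2.04 ± 0.37 and Numb, an inhibitor of Notch signalling, by 1.41 ± 0.22. The Notch1 and Dll4 calls ended without Tbr2-negative TSA library 1 (adjusted p = 0.0647 and 0.0849). The Notch target genes Hes1 (-0.98) and Hes5 (-0.64) did not pass.

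Radial glial genes did not move one way. Of 24, 5 were higher and 3 were lower, with a median of -0.07. Without Tbr2-negative TSA library 1 the counts were 2 and 1, and 1 gene was lower without Tbr2-positive TSA library 2 or without Tbr2-negative TSA library 2. Lhx2, a cortical selector factor, had 239 and 249 CPM in Tbr2-positive TSA nuclei, against 68.4 and 58.5 CPM in Tbr2-negative TSA nuclei (1.94 ± 0.21; adjusted p = 0.000242). Tfap2c was higher by 2.46 ± 0.32 and Pax6, a factor that drives neurogenesis in radial glia, by 1.52 ± 0.27. Pax6 lost its call without Tbr2-negative TSA library 1 (adjusted p = 0.0542). Ptprz1, a receptor phosphatase of radial glia and oligodendrocyte precursors, had 282 and 303 CPM in Tbr2-positive TSA nuclei, against 711 and 782 CPM in Tbr2-negative TSA nuclei (-1.35 ± 0.19). Sox2, a stem cell factor, had 28.9 and 36.3 CPM in Tbr2-positive TSA nuclei, against 57.6 and 55.3 CPM in Tbr2-negative TSA nuclei (-0.79 ± 0.23; adjusted p = 0.0452). The vehicle value of Sox2 was 0.08 (adjusted p = 0.819), and the difference between the treatments did not pass (-0.87 ± 0.29, adjusted p = 0.895). The Sox2 call under TSA was kept in only 2 of the 10 fits that each left out 1 library, with adjusted p up to 0.219.

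Interneuron genes had the largest share called lower among the gene lists. Of 19 tested, 17 were lower and 1 was higher, with a median of -2.49, and 16 were lower whichever of the 4 TSA libraries was left out. Gad1, which encodes an enzyme that makes GABA, had 34.3 and 33.5 CPM in Tbr2-positive TSA nuclei, against 212 and 229 CPM in Tbr2-negative TSA nuclei (-2.70 ± 0.35; adjusted p = 0.000799). Slc32a1, the vesicular GABA transporter gene, had 0.849 and 1.23 CPM in Tbr2-positive TSA nuclei, against 8.90 and 11.7 CPM in Tbr2-negative TSA nuclei (-3.30 ± 0.60; adjusted p = 0.00494). Its start overlaps the antisense gene Gm14204, and the library kit does not keep the strand, so reads of the 2 cannot be told apart. The transcription factor genes of ventral origin followed. Dlx5 had 13.5 and 10.4 CPM in Tbr2-positive TSA nuclei, against 100.3 and 91.5 CPM in Tbr2-negative TSA nuclei (-3.00 ± 0.33; adjusted p = 0.000225). Lhx6, a factor of medial eminence interneurons, had 15.3 and 25.02 CPM in Tbr2-positive TSA nuclei, against 109 and 105 CPM in Tbr2-negative TSA nuclei (-2.41 ± 0.32).

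Dlx6, Dlx2, Maf, Sp9 and the neuregulin receptor gene Erbb4 lay between -3.31 and -2.84, and the neuropeptide genes Sst and Npy at -2.47 ± 0.30 and -2.24 ± 0.38. Prox1, a homeobox factor of caudal interneurons and of hippocampal granule cells, was the 1 higher member (1.37 ± 0.29), with 79.6 and 62.9 CPM in Tbr2-positive TSA nuclei, against 29.3 and 25.8 CPM in Tbr2-negative TSA nuclei. Without Tbr2-positive TSA library 1, Tbr2-negative TSA library 1 or Tbr2-negative TSA library 2, no listed interneuron gene was called higher. Summed over the list, the level was 503.9 and 569.5 CPM in Tbr2-positive TSA nuclei and 2101 to 2339 CPM in Tbr2-negative TSA nuclei. Under vehicle it was 323.4 to 538.7 CPM in Tbr2-positive nuclei and 1190 to 1455 CPM in Tbr2-negative nuclei, with 16 genes lower, 2 higher and a median of -2.17.

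Genes of striatal and septal cells gave fewer calls, 4 lower of 15 (median -0.86), and 1 or 2 when any 1 TSA library was left out. Isl1, a factor of striatal projection neurons, had 4.97 and 11.4 CPM in Tbr2-positive TSA nuclei, against 60.1 and 84.5 CPM in Tbr2-negative TSA nuclei (-3.14 ± 0.37; adjusted p = 0.000369). Under vehicle the Isl1 log2 fold change was -1.68, and the difference between the treatments did not pass (-1.46, adjusted p = 0.895).

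Postmitotic neuronal genes were mostly lower in Tbr2-positive TSA nuclei. Of 20 pan-neuronal genes 13 were lower and 1 was higher (median -1.15), and 7 were lower without Tbr2-negative TSA library 1. Nrxn3, a presynaptic adhesion gene, had 39.6 and 55.2 CPM in Tbr2-positive TSA nuclei, against 274 and 402 CPM in Tbr2-negative TSA nuclei (-2.83 ± 0.29; adjusted p = 0.00017). Mapt, the gene of the microtubule protein tau, had 629 and 558 CPM in Tbr2-positive TSA nuclei, against 1960 and 1677 CPM in Tbr2-negative TSA nuclei (-1.62 ± 0.23). Ncam1 was lower by a log2 fold change of -1.38 ± 0.19 and Camk2b, a calcium-dependent kinase gene, of -1.51 ± 0.26. Dcx, a microtubule protein of young migrating neurons, did not differ past the threshold (-0.05 ± 0.17, adjusted p = 0.917), and Rbfox3 was higher (0.84 ± 0.21), a call that ended without Tbr2-positive TSA library 2 or either Tbr2-negative TSA library.

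Deep-layer genes were lower for 6 of 13 and higher for none (median -1.04), and for 2 without Tbr2-positive TSA library 1 or without Tbr2-negative TSA library 1. Tle4, a corepressor of corticothalamic neurons, had 86.2 and 70.9 CPM in Tbr2-positive TSA nuclei, against 170.4 and 159 CPM in Tbr2-negative TSA nuclei (-1.07 ± 0.19; adjusted p = 0.00489). Bcl11b, a factor of subcerebral neurons, was lower by a log2 fold change of -1.30 ± 0.26, a call that ended without Tbr2-positive TSA library 1 or Tbr2-negative TSA library 1 (highest adjusted p = 0.0724). Tbr1, the T-box factor of deep-layer neurons, had 153 and 229 CPM in Tbr2-positive TSA nuclei, against 185 and 189.6 CPM in Tbr2-negative TSA nuclei, so the groups overlapped (0.03 ± 0.23). Upper-layer genes split into 3 higher and 2 lower of 12 (median -0.37). Unc5d, a netrin receptor gene of multipolar and upper-layer cells, had 433 and 619 CPM in Tbr2-positive TSA nuclei, against 142 and 130 CPM in Tbr2-negative TSA nuclei (1.95 ± 0.22), and Mef2c was lower (-1.50 ± 0.34), a call that ended without Tbr2-positive TSA library 2 or either Tbr2-negative TSA library. No upper-layer gene was called lower without Tbr2-positive TSA library 2 or Tbr2-negative TSA library 1, and 1 was without Tbr2-positive TSA library 1 or Tbr2-negative TSA library 2.

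Transmitter receptor genes were lower where they passed. Of 25 subunits of ionotropic glutamate and GABA receptors 13 were lower and none was higher, with a median of -1.40. The count was 7 to 9 when 1 TSA library was left out, the lowest without Tbr2-positive TSA library 1. Gria1, an AMPA receptor subunit, had 47.3 and 55.3 CPM in Tbr2-positive TSA nuclei, against 238 and 212 CPM in Tbr2-negative TSA nuclei (-2.13 ± 0.25; adjusted p = 0.000371). Grin2b, an NMDA receptor subunit, had 59.1 and 83.4 CPM in Tbr2-positive TSA nuclei, against 217 and 244 CPM in Tbr2-negative TSA nuclei (-1.69 ± 0.26). Gabra5, a GABA-A receptor subunit, had 13.7 and 11.03 CPM in Tbr2-positive TSA nuclei, against 40.8 and 31.6 CPM in Tbr2-negative TSA nuclei (-1.55 ± 0.41; adjusted p = 0.033). The Gabra5 call ended without any 1 of the 4 TSA libraries. Under vehicle 19 of the 25 were lower, with a median of -1.87.

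Axon guidance genes divided evenly, with 6 higher and 6 lower of 33 (median -0.25). The lower count was 2 or 3 without any 1 TSA library, while the higher count was 5 or 6. Sema5a, a semaphorin, had 143 and 133 CPM in Tbr2-positive TSA nuclei, against 23.7 and 36.1 CPM in Tbr2-negative TSA nuclei (2.21 ± 0.23; adjusted p = 0.000174). Sema3c, a secreted semaphorin, had 365 and 399.6 CPM in Tbr2-positive TSA nuclei, against 135 and 129 CPM in Tbr2-negative TSA nuclei (1.53 ± 0.15). The netrin receptor genes went both ways, with Dcc at 1.91 ± 0.28 and Unc5c at -1.32 ± 0.31, and the ligand gene Ntn1 was lower (-1.52 ± 0.38). The Ntn1 call ended without any 1 TSA library, and the Unc5c call without Tbr2-positive TSA library 1 or either Tbr2-negative TSA library.

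Markers of other cells that sorting could leave behind also differed. For comparison, 4.19% of all tested genes were higher and 5.13% lower under TSA. Of 6 oligodendrocyte precursor genes 3 were lower (Olig1, Pdgfra and Cspg4) and none was higher, with summed levels of 19.4 and 20.2 CPM in Tbr2-positive TSA nuclei and 69.9 and 70.4 CPM in Tbr2-negative TSA nuclei. Of 12 microglial genes 4 were lower and none was higher, with summed levels of 23.4 to 35.2 CPM in Tbr2-positive TSA nuclei and 71.0 to 94.2 CPM in Tbr2-negative TSA nuclei. Cx3cr1, the fractalkine receptor of microglia, had 1.44 and 1.32 CPM in Tbr2-positive TSA nuclei, against 13.3 and 9.83 CPM in Tbr2-negative TSA nuclei (-3.06 ± 0.48; adjusted p = 0.00218). The other microglial calls had adjusted p of 0.0422 to 0.0495, and 2 microglial genes were lower without Tbr2-positive vehicle library 1 or 3, and 1 when any 1 TSA library, Tbr2-negative vehicle library 1 or Tbr2-negative vehicle library 3 was left out. The 3 precursor calls became 1 or 2 without any 1 TSA library. Of 9 Cajal-Retzius genes 1 was higher (Nhlh2) and 2 were lower (Ndnf and Car10), and 0 or 1 was lower when any 1 TSA library was left out. The Nhlh2 call ended without Tbr2-positive TSA library 1 (adjusted p = 0.0716) or Tbr2-negative TSA library 2 (adjusted p = 0.112). The part of these cells in the differences of other genes was not tested.

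**Figure D2:**
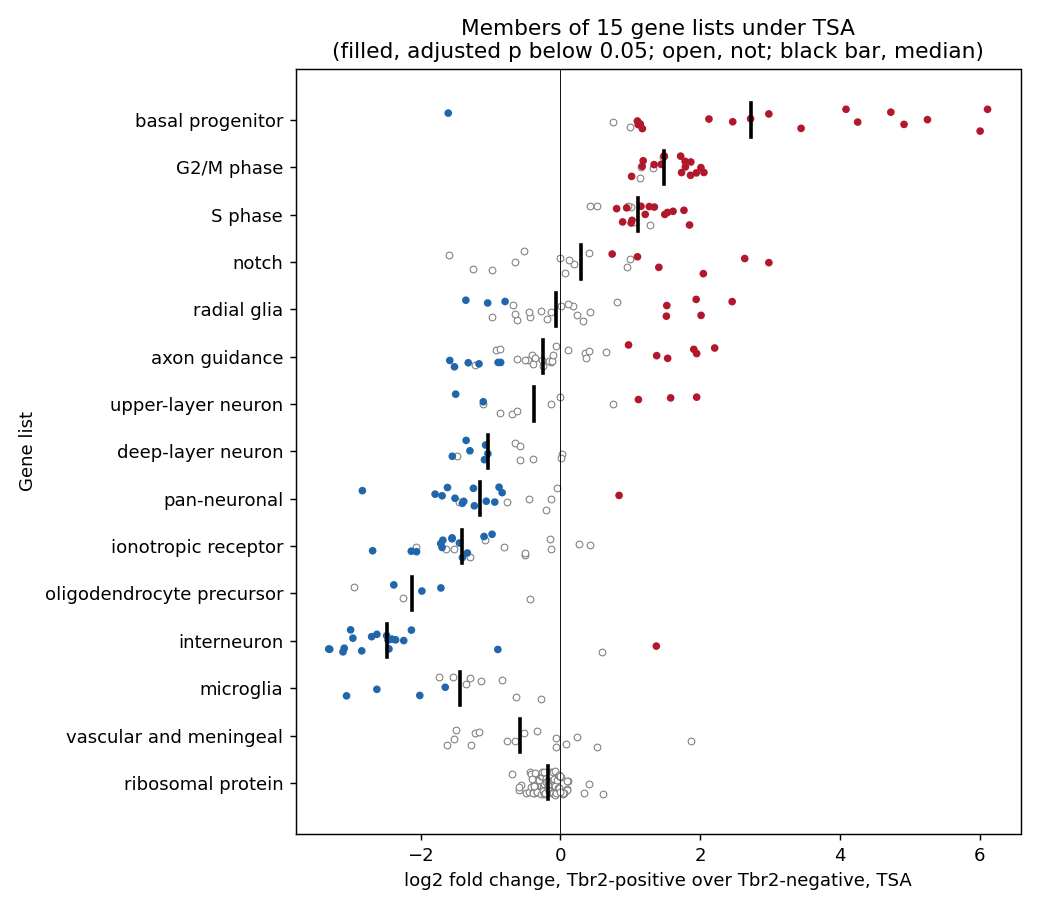
Log2 fold change of Tbr2-positive over Tbr2-negative nuclei under TSA for the tested members of 15 gene lists, 1 list per row. Filled points passed an adjusted p of 0.05 (red higher, blue lower), open points did not, and black bars are medians; basal progenitor, G2/M and S-phase genes lie to the right, interneuron and receptor genes to the left, and the 82 ribosomal protein genes around 0 with none passing.

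Deacetylase genes gave a few calls, in both directions. Of 11, Hdac9 and Hdac1 were higher and Hdac11 was lower (median 0.21), beside 4.19% higher and 5.13% lower over all tested genes. Hdac9, a class IIa enzyme gene, had 85.4 and 112 CPM in Tbr2-positive TSA nuclei, against 24.3 and 18.7 CPM in Tbr2-negative TSA nuclei (2.20 ± 0.23; adjusted p = 0.00017). Hdac1, a class I enzyme gene, had 81.4 and 72.6 CPM in Tbr2-positive TSA nuclei, against 38.1 and 33.3 CPM in Tbr2-negative TSA nuclei (1.11 ± 0.19). Hdac11, the class IV enzyme gene, had 7.68 and 10.6 CPM in Tbr2-positive TSA nuclei, against 33.2 and 33.0 CPM in Tbr2-negative TSA nuclei (-1.86 ± 0.28). All 3 calls were kept when any 1 of the 4 TSA libraries was left out. Hdac2 (0.21 ± 0.17) did not pass. The linker histone gene H1f0 was higher by 1.04 ± 0.17 under TSA and by 1.74 under vehicle.

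Of 10 nuclear long noncoding RNAs 4 were lower, among them Meg3, Rian and Mirg, which come from 1 imprinted locus. Meg3 had 61.8 and 152 CPM in Tbr2-positive TSA nuclei, against 270.03 and 637 CPM in Tbr2-negative TSA nuclei (-2.09 ± 0.45; adjusted p = 0.0114), with more than a 2-fold spread inside each group. The Meg3 and Mirg calls ended without Tbr2-positive TSA library 1 or Tbr2-negative TSA library 2, and Mirg also without Tbr2-positive TSA library 2. Only 1 of the 10 was lower without Tbr2-positive TSA library 1 or without Tbr2-negative TSA library 2. Ribosomal protein genes (0 of 82) and mitochondrially encoded genes (0 of 15) did not pass in either direction. Thymosin, profilin and related actin-binding genes had 0 of 8 past the threshold, with Tmsb10 at 371 and 367 CPM in Tbr2-positive TSA nuclei, against 706 and 560 CPM in Tbr2-negative TSA nuclei (-0.78 ± 0.26, adjusted p = 0.0835; DESeq2 adjusted p = 0.0312). Among 13 immediate-early genes only Ier2 was higher (1.82 ± 0.31) and only Fosl2 lower (-2.37 ± 0.36). Over all tested genes 4.19% were higher and 5.13% lower, so these counts say little about the list.

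Ranked by size alone, the extremes were mostly low-count genes. Besides Neurod4, Neurog1 and Eomes, the 10 largest positive values included Them5, an acyl-CoA thioesterase gene, at 6.58 and 5.06 CPM in Tbr2-positive TSA nuclei, against 0.0835 and 0.126 CPM in Tbr2-negative TSA nuclei (5.73 ± 0.97). Chrnb4, a nicotinic receptor subunit, had 1.87 and 2.23 CPM in Tbr2-positive TSA nuclei and no counts in Tbr2-negative TSA nuclei, at least 16.4-fold higher when 3 counts in each library stand for 0. Sstr3, Lingo4, Lao1, Dtx3l and Chst9 were the others, all at or below 6.06 CPM in each library. Slco4c1, an organic anion transporter gene, had no counts in Tbr2-positive TSA nuclei and 3.34 and 4.47 CPM in Tbr2-negative TSA nuclei, at least 29.6-fold lower. Dock10, a guanine exchange factor gene, had 0.594 and 0.228 CPM in Tbr2-positive TSA nuclei, against 6.47 and 8.36 CPM in Tbr2-negative TSA nuclei (-4.15 ± 0.77). Ermn, Cckbr, Tacr3, Ppp1r3f, Mertk, Plcd3 and Tmem132d were also among the 10 largest negative values. Of these 20 genes 7 kept their call in each of the 10 fits without 1 library: Neurod4, Neurog1, Them5, Eomes, Slco4c1, Ermn and Dock10.

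Most population differences seen under vehicle had the same sign under TSA, and fewer than 40% of them passed the test there. Under vehicle 1999 genes were higher (9.96%) and 2304 lower (11.5%) in Tbr2-positive nuclei, or 21.4% in either direction. Of the 1999, 723 (36.17%) were also called higher under TSA and 1928 (96.45%) had a positive log2 fold change. Of the 2304, 880 (38.19%) were also called lower and 2229 (96.75%) had a negative one. Over all tested genes, the sign was the same in 73.26%. Read the other way, 723 of 841 genes higher under TSA (85.97%) and 880 of 1030 lower (85.44%) had been called in the same direction under vehicle. In this fit 0 genes were called in opposite directions.

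The sizes differed by list. Genes called higher under vehicle had a median log2 fold change of 0.77 under TSA and 1.04 under vehicle, and genes called lower had -1.01 under TSA and -1.40 under vehicle; both sets were chosen on their vehicle values. Genes called under TSA had medians of 1.40 under TSA and 1.34 under vehicle when higher, and of -1.43 in both treatments when lower; these were chosen on their TSA values. Of vehicle differences below 1 on the log2 scale, 18.9% of the higher and 25.4% of the lower were called under TSA, against 48.8% and 47.2% of those between 1 and 2. Of those of 2 or more, 57.3% and 40% were called. The median SE of a log2 fold change was 0.40 under TSA with 2 libraries a side and 0.33 under vehicle with 3. With both vehicle libraries numbered 3 left out, so that each treatment had 2 libraries a side, 1054 and 1254 genes were called under vehicle, and 837 and 991 under TSA. In that fit 584 of the 1054 and 700 of the 1254 were also called under TSA.

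**Figure D3:**
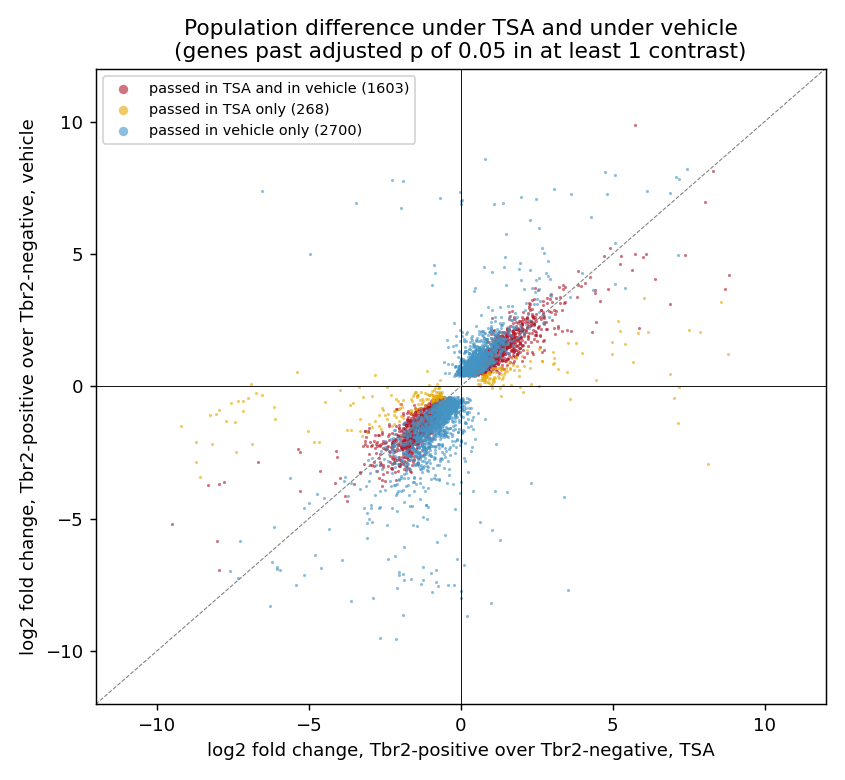
Log2 fold change of Tbr2-positive over Tbr2-negative nuclei under TSA (x axis) and under vehicle (y axis), for genes past an adjusted p of 0.05 in at least 1 of the 2 contrasts. Colours give where a gene passed, the dashed line is equality, and genes that passed in both contrasts (1603) lie in the lower left and upper right corners.

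**Figure D4:**
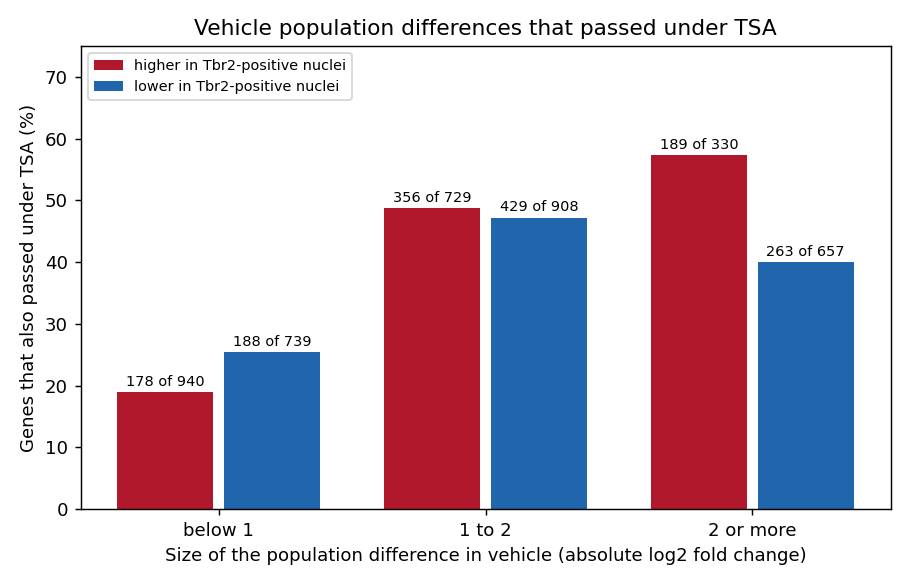
Percent of vehicle population differences that were also called in the same direction under TSA, by absolute log2 fold change in vehicle. Red bars are genes higher and blue bars genes lower in Tbr2-positive nuclei, with counts above; the share was 18.9% and 25.4% for the smallest differences and 48.8% and 47.2% for the middle ones.

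No gene passed the test of the difference itself, that is the population difference under TSA minus that under vehicle (0 of 20078, 0%; smallest adjusted p = 0.634). At an unadjusted p below 0.05 there were 1103 genes, and DESeq2 called 11. Among the 1603 genes called in both treatments, 1515 differed by less than 1 on the log2 scale between treatments (median absolute difference 0.28). These genes were chosen for passing in the same direction in both treatments, which by itself favours a small difference. The median SE of the difference was 0.51. The genes named next did not pass with edgeR. Of them, Rbms3 and Laptm4b were among the 11 that DESeq2 called (DESeq2 adjusted p = 0.00465 for each). Vldlr, Prickle2, Coq2 and Dvl1 were not.

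Among the smallest p-values were genes with a less negative value under TSA. Vldlr, a reelin receptor gene, had a log2 fold change of -1.61 ± 0.17 under TSA and -2.51 under vehicle (adjusted p of the difference 0.895). Prickle2, a planar polarity gene, had -1.24 ± 0.25 under TSA and -2.57 under vehicle (adjusted p of the difference 0.895); its TSA call ended without Tbr2-negative TSA library 2. Coq2 and Dvl1 had values of 0.22 and 0.27 under TSA, and -1.04 and -0.97 under vehicle. In the other direction, Rbms3, an RNA-binding protein gene, had -1.10 ± 0.24 under TSA and 0.56 under vehicle, a difference of -1.66 ± 0.31 (adjusted p = 0.634); its TSA call ended without any 1 TSA library. Laptm4b, a lysosomal membrane gene, had -0.15 ± 0.25 under TSA and 1.54 under vehicle (-1.69 ± 0.33, adjusted p = 0.634).

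Trnp1, whose nuclear product influences how radial glia divide, had 8.45 and 4.88 CPM in Tbr2-positive TSA nuclei, against 8.60 and 7.44 CPM in Tbr2-negative TSA nuclei. The 2 groups overlapped (-0.27 ± 0.44, adjusted p = 0.788). Under vehicle it had 2.48, 2.64 and 3.08 CPM in Tbr2-positive nuclei, against 11.3, 12.9 and 6.20 CPM in Tbr2-negative nuclei (-1.89 ± 0.37, adjusted p = 0.00271). The difference between the treatments was 1.62 ± 0.57 and did not pass (adjusted p = 0.895).

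Of genes called under TSA, 118 higher and 150 lower had not been called under vehicle. By p-value the first higher ones were Gfap, Clp1, Flna, Dtx3l and Ube2l6. Gfap, an astroglial filament gene, had 3.06 and 6.61 CPM in Tbr2-positive TSA nuclei, against 0.251 and 0.0418 CPM in Tbr2-negative TSA nuclei (4.99 ± 0.92), while its vehicle value of 1.67 did not pass (adjusted p = 0.0641). Flna, an actin cross-linker gene, had 121 and 125 CPM in Tbr2-positive TSA nuclei, against 53.3 and 68.0 CPM in Tbr2-negative TSA nuclei (1.02 ± 0.19), with 0.09 under vehicle. Its call ended without Tbr2-negative TSA library 1 (adjusted p = 0.0818). The first lower ones were Spryd3, Hk1, Apba2, Pnmal2 and Glb1l2. Hk1, the brain hexokinase gene, had 21.3 and 38.1 CPM in Tbr2-positive TSA nuclei, against 90.0 and 94.1 CPM in Tbr2-negative TSA nuclei (-1.63 ± 0.26), with -0.48 under vehicle. The Dtx3l call also ended without Tbr2-negative TSA library 1, Clp1 without Tbr2-negative TSA library 2, Ube2l6 without either Tbr2-negative TSA library, and Pnmal2 and Glb1l2 without Tbr2-positive TSA library 1. None of these 10 passed the test of the difference between treatments.

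Genes that differed at least 2-fold under vehicle and did not pass under TSA kept their sign among those with the smallest vehicle p-values. Ccnd2, a G1 cyclin gene of basal progenitors, had 616 and 829 CPM in Tbr2-positive TSA nuclei, against 460.2 and 442 CPM in Tbr2-negative TSA nuclei (0.68 ± 0.21, adjusted p = 0.0573), with 1.36 under vehicle. DESeq2 called it under TSA (adjusted p = 0.00703), as it did Lamp2, Gpr26, Gabrg3 and Cacna1e (adjusted p = 0.0081 to 0.02), so that these are near the threshold. Lamp2 (0.54), Coro1c (0.48) and Ddit4 (0.58) had vehicle values of 1.21 to 1.72. Met, a receptor tyrosine kinase gene of projection neurons, had 7.94 and 12.1 CPM in Tbr2-positive TSA nuclei, against 23.3 and 17.4 CPM in Tbr2-negative TSA nuclei (-1.02 ± 0.38, adjusted p = 0.119), with -2.90 under vehicle. Gpr26 (-0.996), Gabrg3 (-1.08), Magi3 (-0.48) and Cacna1e (-1.02) had vehicle values of -2.46 to -1.30.

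H3K9ac was read in other libraries of the same sort and treatment, at the starts of the genes called in RNA. A start was known for 12574 tested genes, of which 614 were higher and 714 lower under TSA. A peak lay at the start of 93.65% of higher genes in Tbr2-positive TSA libraries and of 93.93% in Tbr2-negative TSA libraries, and the libraries of the 2 groups overlapped. For lower genes it was 87.85% in Tbr2-positive TSA libraries and 95.8% in Tbr2-negative TSA libraries, with no overlap. Over all genes it was 83.87% in Tbr2-positive TSA libraries and 87.67% in Tbr2-negative TSA libraries, and Tbr2-positive TSA libraries held fewer peaks (31823 to 40053) than Tbr2-negative TSA libraries (47835 to 78929). The percentage was therefore also taken relative to that of all genes in the same library. For lower genes this excess was 3.98 ± 0.29 percentage points in Tbr2-positive TSA libraries and 8.13 ± 0.29 in Tbr2-negative TSA libraries (SD, n = 4 each; exact permutation test, two-sided p = 0.02857, the smallest that 4 against 4 allow, also after adjustment over the 2 tests). For higher genes it was 9.78 ± 0.34 points in Tbr2-positive TSA libraries and 6.26 ± 0.19 in Tbr2-negative TSA libraries (exact two-sided p = 0.02857). For the higher genes the share itself was near its ceiling in both groups and the share over all genes differed, so that the excess shows no difference in H3K9ac at those starts. Under vehicle, without a test, the excess for the same higher genes was 7.77 points in Tbr2-positive libraries and 6.08 in Tbr2-negative libraries. For the lower genes it was 5.18 points in Tbr2-positive libraries and 7.99 in Tbr2-negative libraries.

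**Figure D5:**
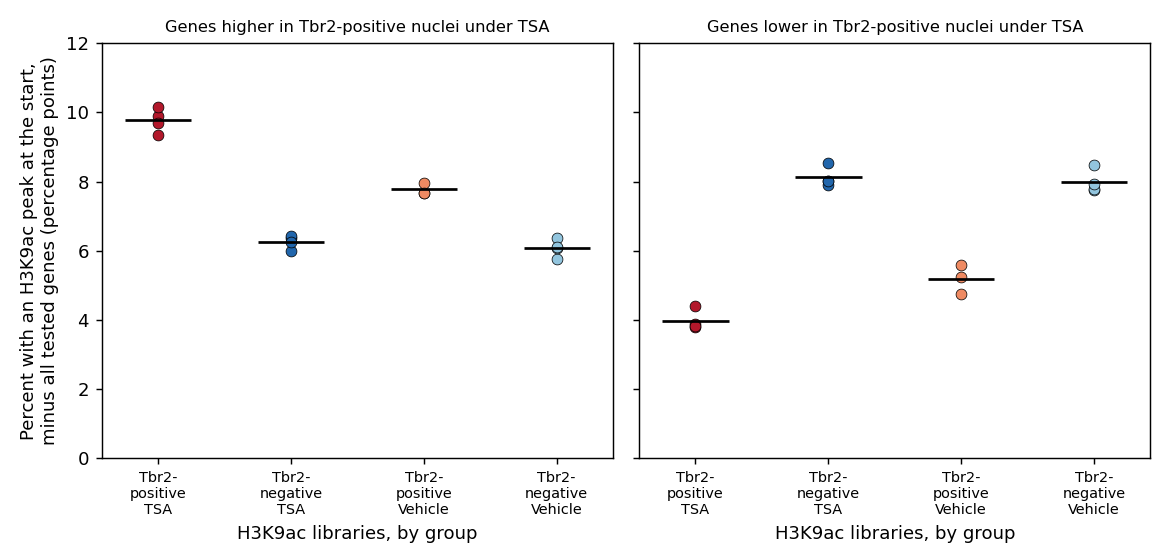
Percent of genes with an H3K9ac peak within 1 kb of the start minus that of all tested genes, in percentage points, for genes higher (left) and lower (right) in Tbr2-positive nuclei under TSA. Points are ChIP-seq libraries and bars group means; Tbr2-positive TSA libraries average 9.78 and 3.98, Tbr2-negative TSA libraries 6.26 and 8.13.

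Few genes had a peak at the start in 1 population alone. Of 714 lower genes, 26 (3.64%) had a peak in 0 of 4 Tbr2-positive TSA libraries and in 4 of 4 Tbr2-negative TSA libraries, as did 129 of all 12574 genes (1.03%). Neurod4 was the one higher gene of 614 with the opposite pattern, which 2 of all genes had. The 26 included the interneuron genes Gad1, Slc32a1, Lhx6 and Sp9, the receptor subunit gene Gabra5, the kinase gene Camk2b and Npas1, a factor of pallidal and interneuron cells. Gm14204, the antisense gene that overlaps the Slc32a1 start, is counted among the 26 as a separate gene. At the Gad1 start the authors' -log10 q of the strongest peak was 22.6, 17.0, 19.6 and 11.7 in the 4 Tbr2-negative TSA libraries. At the Gabra5 start it was 13.6, 28.5, 18.4 and 14 in the same libraries. Under vehicle 14 of the 26 had no peak in any of 3 Tbr2-positive libraries, and 25 had one in all 4 Tbr2-negative libraries. Lhx6 had a peak in 3 of 3 Tbr2-positive vehicle libraries. When each library was cut to the same number of strongest peaks, 19 lower genes of 714 had the pattern, as did 71 of all 12574 genes. Of the 19, 16 were among the 26, and Sp9 and Npas1 were not. The opposite pattern was then held by 6 of 614 higher genes and 20 of all genes. RNA and H3K9ac did not always go together: Sstr3, higher in RNA, had a peak in 1 of 4 Tbr2-positive TSA libraries and in 4 of 4 Tbr2-negative TSA libraries, and Lao1 had none in any library.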

How the data were processed

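RNA-seq libraries were made with the TruSeq RNA v2 kit, which does not keep the strand, and H3K9ac ChIP-seq libraries with NEBNext Ultra, per the labels' protocols. The series text describes nuclei sorted by FACS, while the protocol of the RNA samples names TRIZOL on whole tissue. For RNA the deposited files hold raw counts, 1 value for each Ensembl gene. SAMtools, MACS2 and the mm10 build are named in the submitters' processing notes, and which aligner, counter and annotation were used is not given in the sources used here. Values of H3K9ac come as 1 peak list per library with a -log10 q per peak, made with MACS 2.1.0.20140616 at a q-value cutoff of 0.1, per the file headers; pileup, -log10 p and fold enrichment were not used.

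Of 48709 gene identifiers 48349 had a symbol. edgeR 4.0.16 (R 4.3.3) kept 20078 genes by filterByExpr, scaled by TMM, and fitted a robust quasi-likelihood model to all 10 RNA libraries with 1 mean per group. Contrasts were Tbr2-positive minus Tbr2-negative under TSA, the same under vehicle, and their difference, each with Benjamini-Hochberg adjustment over all genes at 0.05. CPM use TMM-scaled library sizes, and SE was computed as |log2 fold change| / sqrt(F). The common biological coefficient of variation was 0.374. A fold against a group without counts is a bound set by 3 counts in each library (counting error only). The fit was tested on simulated data, where it missed most 2-fold changes in the TSA contrast and in the difference between treatments. Starts of 12574 tested genes came from RefSeq (GRCm38.p6), and a peak counted when it overlapped 1 kb on either side. H3K9ac was compared with exact two-sided permutation tests over libraries. The 4 input libraries were not analysed here.

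Genes were named by rule: in each direction, the 10 with the largest change that passed, with at least 2 CPM in the higher group, a gene-like symbol and groups that did not overlap; up to 3 passing members of each list by p; a fixed set (Eomes, Neurog2, Pax6, Sox2, Tbr1, Mki67, Trnp1, Hdac1, Hdac2, Hdac9, Cdkn1a, H1f0, Cwc22 and Tmsb10); the first 5 called under TSA only or under vehicle only; and 5 in each direction of the difference between treatments. Other listed genes, and those with a peak in 1 population, were named after their values were seen. Some genes that the rule names are not reported here. The comparison, the gene lists and the alternatives were chosen with earlier results of these data known, so a pattern seen under vehicle is no independent support. Alternatives were RLE scaling, no low-count filter, DESeq2 1.42.0, a replicate block, the libraries of a contrast alone, each library left out, an adjusted p of 0.01, a 2-fold minimum, and for H3K9ac equal peak numbers, -log10 q of at least 5 and a window of 2 kb; leaving out both vehicle libraries numbered 3 was added after seeing the data.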

Additional observations from a re-analysis of the deposited data

Results flagged for a closer look

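Of 12 sets of H3K9ac values examined, 1 held a library set apart from the others of its group. Tbr2-positive TSA library 3 had an excess of 4.41 percentage points for genes lower under TSA, against 3.79 to 3.89 points in the other 3 libraries of the group. Chance flags about 1 in 20 such groups. The value remained below the 7.92 to 8.55 points of the Tbr2-negative TSA libraries. RNA groups of 2 or 3 libraries are too small for this check.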

How the results depend on the processing

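The direction of the TSA contrast is given by 2 libraries a side, and its counts moved with the fit. DESeq2 called 1417 genes higher and 1592 lower (841 and 1030 with edgeR), and an adjusted p below 0.01 left 348 and 386. Leaving out 1 library gave 278 to 873 higher and 396 to 1083 lower genes. Genes called higher in both treatments numbered 1108 with DESeq2, and 269 to 714 without 1 library, and genes called lower in both numbered 369 to 878. With both vehicle libraries numbered 3 left out, the vehicle counts were 1054 and 1254. Genes called in opposite directions numbered 3 with DESeq2, 1 with the replicate block and 0 to 3 without 1 library. The difference between treatments gave 11 genes with DESeq2 and 0 in the other fits. Of 80 genes named by size, list or as called under TSA alone, 46 kept their call in each of the 10 fits without 1 library.

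List medians turned sign without 1 library for Cajal-Retzius genes (-0.13 without Tbr2-positive TSA library 1, -0.22 without Tbr2-negative TSA library 2, up to 0.50 without 1 library), erythroid genes (0.045 without Tbr2-positive TSA library 2, 0.20 without Tbr2-negative TSA library 1, down to -0.64 without 1 library) and deacetylase genes (-0.028 without Tbr2-positive TSA library 2, up to 0.27 without 1 library). The cause was not tested.

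Replicate numbers were checked as pairs. Same-numbered libraries of the 2 populations deviated together with r of 0.117 under TSA and 0.0806 to 0.0994 under vehicle, across genes. Each library correlated best with its own number. In groups of 2 libraries the deviations mirror each other, so under TSA this rests on the sign of a single correlation. No label ties the numbers to an animal or day, so the fit with the replicate block is given as an alternative. It called 1048 genes higher and 1278 lower under TSA (841 and 1030 without the block), and 0 for the difference between treatments. The block also called Ccnd2 (adjusted p = 0.0397), Lamp2 (0.0422), Cacna1e (0.00947) and Tmsb10 (0.00903) under TSA.

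The differences in the H3K9ac excess, for higher and then lower genes, were 4.06 and -6.31 points with equal peak numbers. They were 4.94 and -8.51 with -log10 q of at least 5, and 3.61 and -3.84 with a window of 2 kb. All had an exact permutation p of 0.02857. For higher genes the share itself overlapped between the groups in the main setting, so their excess is not read as a difference in H3K9ac. The shares in the other settings are not given here. Without 1 library they were 3.39 to 3.66 and -4.30 to -4.01, at an exact p of 0.05714, the smallest that 3 against 4 libraries allow. A count of 0 limits genes to 3 counts per library, and the median SE of a log2 fold change was 0.40 under TSA.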
